A study of Mus musculus with 7 samples.

Results

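The nuclear receptor genes of the gut epithelium were taken as 44 named genes, and their open chromatin was described in Lgr5+ intestinal stem cells of mice after bone marrow transplantation (BMT). A region of open chromatin was counted to one of these genes when the summit of its best ranked peak lay in the gene body, or when the gene was the nearest protein-coding gene within 50 kb of that summit. By this rule 460 of 103809 regions belonged to the 44 genes. All recipients were lethally irradiated female B6-GFP-Lgr5 mice of 8 to 12 weeks, whose stem cells carry a green fluorescent reporter of Lgr5. Syn recipients were given syngeneic (B6-GFP-Lgr5) transplants and supplied 3 libraries. Allo recipients were given allogeneic transplants from BALB/c donors, carry the description gvhd (graft-versus-host disease) in the labels, and supplied 4 libraries. Cells were sorted on day 7 after transplantation, 50000 for each library, from pools of 3 to 4 mice, and open chromatin was mapped by Omni-ATAC-seq, in which a transposase cuts accessible DNA. Irradiation and transplantation were common to both groups, so every comparison is between donor types and not with untreated mice. A library is a pool of mice, and the p-values measure the spread between these pools.

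Nuclear receptors are transcription factors that join a DNA-binding zinc finger domain to a pocket for small fat-soluble ligands such as bile acids, fatty acids, retinoic acid, vitamin D and steroids. Many bind DNA in a pair with a retinoid X receptor (RXR), hold corepressors on the gene while no ligand is bound, and exchange them for coactivators when it arrives. In the intestine they are known for reading bile acids, dietary lipid, vitamins and glucocorticoids, and members without a settled ligand are called orphan receptors.

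The deposited lists held 71925 to 76438 peaks in the Syn libraries and 62977 to 88861 in the Allo libraries. Allo 3 and Allo 4 had the longest lists, and their peaks follow a different naming scheme. The number of reads behind a list is unknown. Strength was therefore compared as a rank percentile, the position of a region's deposited −log10 q among the 50324 regions that all 7 libraries held, with 100 the strongest in that library. Start regions of 10 of 10 stem cell markers and 9 of 9 epithelial markers were open in all 7 libraries, against 2 of 14 leukocyte markers (Cd4 and Spi1) and 2 of 10 endothelial and stromal markers (Kdr and Col1a1). Leukocyte marker genes held 17 to 19 regions in the Syn libraries and 13 to 26 in the Allo libraries, and Cd3d, Cd3g, Cd8a, Cd79a, Nkg7 and Lyz2 held none. The part of these cells in any difference below was not tested. In bulk material, fewer cells with an open region and a less open region in each cell cannot be told apart.

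The sequences shown are stretches just before gene starts, where open chromatin could be read together with its letters. Starts were listed for 41 of the 44 genes in the RefSeq table (assembly GRCm38.p6, the build called mm10). Shown are the 250 bases before a listed start of 5 receptors. Each of the 5 had a start region that ranked higher in every library of one group than in any of the other. This choice was made after the values were seen. Each stretch lay wholly inside that region and is written 5′ to 3′ on the strand of the gene. Capitals mark AGGTCA, the core hexamer bound by most nuclear receptors, on either strand (reading TGACCT on the other). They also mark the E-box CACGTG, bound by the core clock factors among others, and the cyclic AMP response element TGACGTCA.
Nr1i3, chr1:171213720-171213969, plus strand: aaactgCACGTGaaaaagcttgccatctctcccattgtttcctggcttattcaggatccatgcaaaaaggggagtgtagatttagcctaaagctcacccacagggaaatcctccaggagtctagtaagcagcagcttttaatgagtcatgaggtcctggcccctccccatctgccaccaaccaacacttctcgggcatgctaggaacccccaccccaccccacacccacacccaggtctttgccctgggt
Nr1h4, chr10:89506659-89506908, minus strand: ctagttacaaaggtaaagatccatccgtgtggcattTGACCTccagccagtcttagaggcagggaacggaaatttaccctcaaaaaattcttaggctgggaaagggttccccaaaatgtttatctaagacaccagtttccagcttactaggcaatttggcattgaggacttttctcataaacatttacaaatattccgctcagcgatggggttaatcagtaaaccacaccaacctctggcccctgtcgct
Thrb, chr14:17660710-17660959, plus strand: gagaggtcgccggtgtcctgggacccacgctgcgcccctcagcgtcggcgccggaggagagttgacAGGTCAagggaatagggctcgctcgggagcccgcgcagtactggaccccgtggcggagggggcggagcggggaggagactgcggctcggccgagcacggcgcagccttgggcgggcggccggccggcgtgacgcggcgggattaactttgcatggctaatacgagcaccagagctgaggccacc
Esrrg, chr1:187997577-187997826, plus strand: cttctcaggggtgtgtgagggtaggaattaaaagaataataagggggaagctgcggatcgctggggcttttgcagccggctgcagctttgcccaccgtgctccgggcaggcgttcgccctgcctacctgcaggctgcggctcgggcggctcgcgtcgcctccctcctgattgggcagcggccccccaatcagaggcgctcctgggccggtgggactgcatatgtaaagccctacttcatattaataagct
Rorb, chr19:19111197-19111446, minus strand: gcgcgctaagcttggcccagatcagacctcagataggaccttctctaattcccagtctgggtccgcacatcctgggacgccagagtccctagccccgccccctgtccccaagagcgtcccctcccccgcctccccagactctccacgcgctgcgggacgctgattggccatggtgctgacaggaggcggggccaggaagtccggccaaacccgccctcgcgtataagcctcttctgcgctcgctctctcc
The Nr1i3 stretch held CACGTG at positions -244 to -239 before the start. In Nr1h4 the reverse hexamer TGACCT stood at -214 to -209. In Thrb, AGGTCA stood at -184 to -179. Neither Esrrg nor Rorb held any of these letters in the window. Over all 61 member windows, AGGTCA on either strand occurred in 11 (18.0%), in 10 genes, against 12.8% of the 21045 windows in the table. CACGTG occurred in 5 member windows (8.20%) against 6.70% of all, and TGACGTCA in 1 (1.64%, Nr2e1) against 1.94%. The extended site TCAAGGTCA, which contains the hexamer, and the direct repeats of the hexamer known as DR1 and DR4 were found in no member window on either strand, and in 0.323%, 0.0428% and 0% of all windows. AGAACA, the core steroid receptor hexamer, occurred in 4 member windows (6.56%) against 13.8%. These matches describe letters, not bound sites.

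Receptor genes carried open chromatin in nearly every case. Regions were found for 42 of the 44 genes, and by the same rule for 17105 of all 21631 protein-coding genes. Of the 460 regions, 239 were held by all 7 libraries (52.0%, against 48.5% of all regions). Esrrg had the most with 37 regions, followed by Thrb with 32, Rarb with 28, Nr5a2 and Nr3c2 with 26 each and Rxra with 24. Longer genes had more regions (Spearman rho 0.651 over the 44 genes, given as a description). Of the 460 regions, 71.7% lay in a gene body and 61 lay at a gene start. At Nr1h3, Nr1i3, Nr0b2, Esrra, Nr1d1 and Nr4a2 every region was held by all 7 libraries. A further 72 regions were held by a single library, 32 of them by Allo 3, which also had the longest list.

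The number of peaks at receptor genes followed the length of the lists. There were 345, 348 and 356 such peaks in Syn 1 to 3, and 309, 352, 400 and 381 in Allo 1 to 4. Per 10000 peaks of the library this was 47.3 ± 0.697 (SD, n = 3) in Syn and 46.7 ± 1.70 (SD, n = 4) in Allo, a difference smaller than the spread between Allo libraries.

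**Figure D1:**
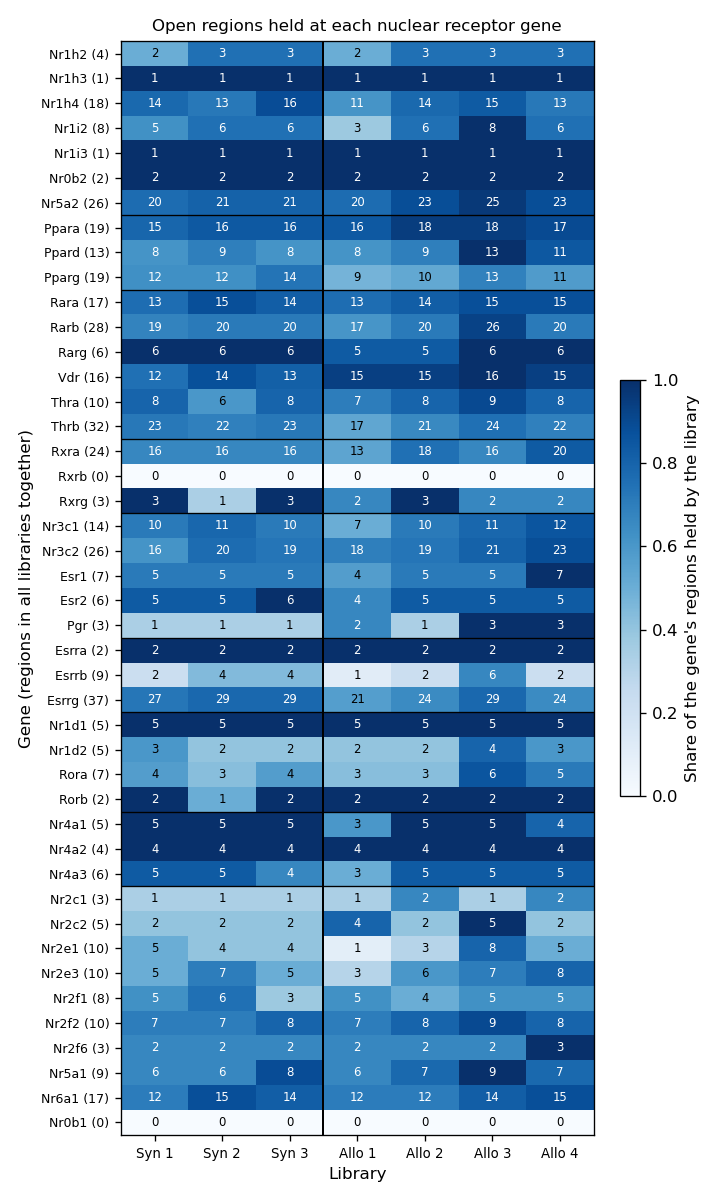
Number of open regions held at each of the 44 receptor genes (rows, with the number over all libraries in parentheses, grouped by role) in each library (columns). Shading gives the share of the gene's regions that the library held. Vdr is the one gene whose counts did not overlap between groups, reaching at most 14 in any Syn library and at least 15 in every Allo library.

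The start of a receptor gene, within 1 kb, was open in all 7 libraries for 35 of the 44 genes. With a window of 500 bp the number was 34. The share over all genes was not counted. The start was open in some libraries for 4: Rxrg in 3, Esrrb in 4, Nr2e1 in 1 and Nr5a1 in 6. No library held a start region for Nr3c1, Rora, Nr2e3, Nr2f2 or Nr0b1. Only listed starts were searched, which was 1 each for Rora, Nr2e3, Nr2f2 and Nr0b1. For Thra, Nr3c1 and Nr5a1, which have no listed start, either end of the annotated gene was used. Their promoters were therefore not located, and whether the Nr3c1 promoter was open cannot be said. Rxrb, the RXR found in most tissues, had an open start in all 7 libraries (rank percentiles 74.5 to 83.0), but the summit of that region lay in the neighbouring gene Slc39a7 and no region was counted to Rxrb. The start region of Nr4a2 was likewise counted to a neighbour. Nr0b1, an orphan receptor of the adrenal gland and gonads, had no region at all.

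Of the 35 receptors with a start region in all libraries, 19 had a mean rank percentile above 75, 13 lay between 25 and 75, and 3 lay below 25. Those 3 were Pgr, the progesterone receptor, Nr2f1, an orphan receptor of neural development, and Esr1, estrogen receptor alpha. Pgr ranked at 4.67, 10.2 and 25.3 in Syn and at 4.01 to 7.30 in Allo. At the other end, Nr2c2, the orphan receptor TR4, ranked at 93.9 to 97.0, Ppara at 93.3 to 97.6 and Esrra at 91.8 to 97.5 across the 7 libraries. These upper 3 overlapped one another in range. Start regions of receptors had a lower median than start regions in general, which was not tested, at a percentile of 63.2 over 47 receptor regions and of 80.7 over all 13302. These sets are unlike. The 47 leave out start regions counted to neighbours, at means of 79.3 (Rxrb) and 88.7 (Nr4a2), while the 13302 hold start regions of any gene. Away from starts, the medians were 37.9 and 39.2.

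**Figure D2:**
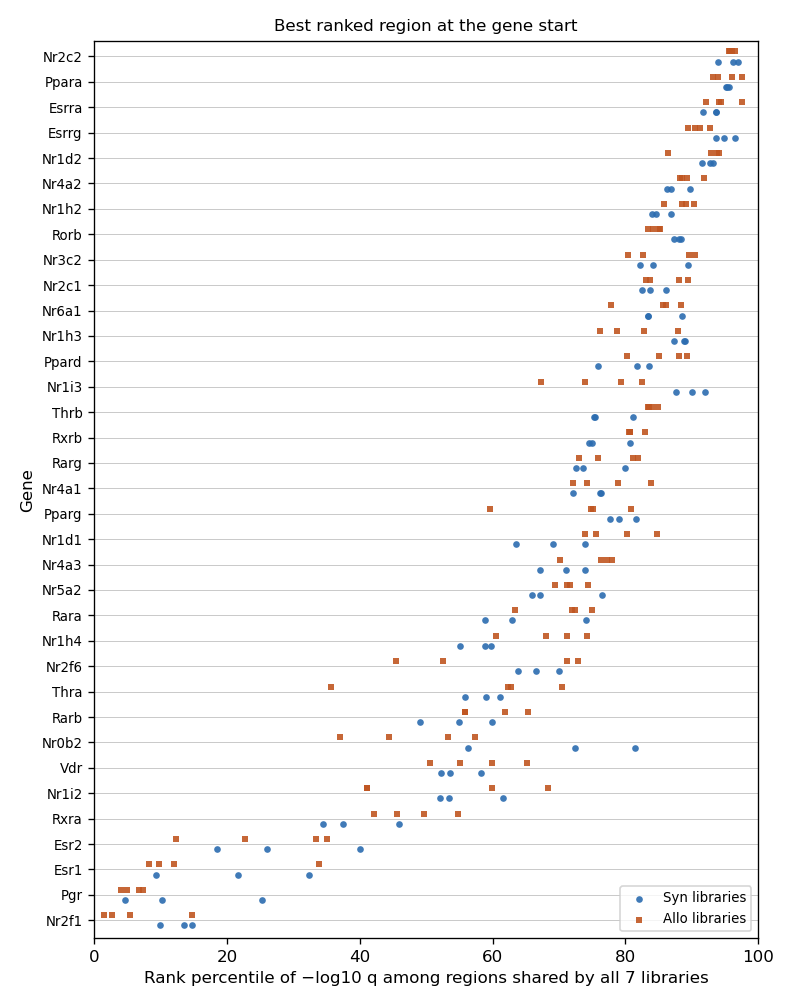
Rank percentile of the best ranked region at the gene start (x axis) for the 35 receptors open there in all 7 libraries (y axis, ordered by mean). Circles are Syn libraries and squares are Allo libraries. Nr2c2, Ppara and Esrra lie above 90 in every library, and Pgr, Nr2f1 and Esr1 lie lowest.

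The donor types differed at a few receptor regions. In a limma fit over all 50324 shared regions with Benjamini-Hochberg adjustment at 0.05, 1 receptor region ranked higher in Allo, at Thra, and 3 ranked lower, at Nr5a2, Rarb and Nr1i3. These were 4 of 239 (1.67%), while 2.90% of all shared regions passed, 1.33% higher and 1.57% lower. A further count, of regions whose groups did not overlap, gave 19 higher (7.95%) and 23 lower (9.62%), against 8.41% and 8.86% of all shared regions. At an unadjusted limma p below 0.05 there were 42 receptor regions (17.6%), against 19.8% of all. The median difference, Allo minus Syn, was -0.69 percentile points over the receptor regions and 0.15 over all. Both counts were near the background, so the receptors as a list did not stand out in either. The calls also depended on which libraries entered the fit. Without Allo 3 and 4 none of the 4 remained below 0.05, and without Allo 1 and 2 the fit called 6 receptor regions higher and 17 lower. None of the 4 passed when regions were ranked over each library's whole list (adjusted p in limma 0.0910 to 0.149) or by the deposited fold instead of −log10 q (0.0848 to 0.712). These rankings also shifted the balance over all shared regions, from 667 higher and 792 lower to 181 and 51 with whole lists and 32 and 17 by fold.

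**Figure D3:**
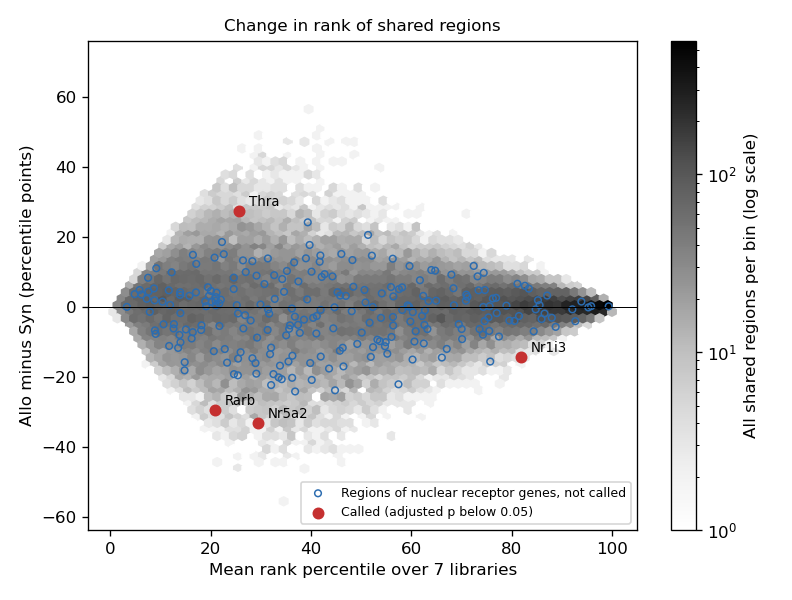
Difference in rank percentile, Allo minus Syn (y axis, percentile points), against the mean rank percentile over 7 libraries (x axis). Grey shading counts all 50324 shared regions on a log scale, open blue circles are the receptor regions that did not pass and red points are the 4 that did. Thra lies above 0 and Nr5a2, Rarb and Nr1i3 lie below.

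Among the receptors for bile acids, oxysterols and xenobiotics, 2 of 34 shared regions ranked lower in Allo (5.88%, against 1.57% of all) and none ranked higher. The first belonged to Nr5a2 (LRH-1), an orphan receptor known in the crypt for supporting proliferation and in the gut for local glucocorticoid synthesis. The region lay on chromosome 1 at 136991728 to 136992463, upstream of the gene at -31.7 kb from its start. Its rank percentiles were 47.8, 48.0 and 49.0 in Syn 1 to 3 and 12.6, 17.7, 17.5 and 13.4 in Allo 1 to 4. Every Syn library stood near the middle of the ranking and every Allo library far below it, with a wide gap between groups. The means were 48.3 ± 0.674 (SD, n = 3) and 15.3 ± 2.69 (SD, n = 4), a difference of -32.97 points (SE 6.24, limma adjusted p = 0.0170). Leaving out Syn 1, Syn 2, Syn 3 or Allo 1 raised the adjusted p in limma to 0.0753, 0.0651, 0.0843 and 0.0508, while the difference stayed between -33.74 and -31.29 points over all single omissions. The start region of Nr5a2 itself ranked at 66.0 to 76.4 in all libraries, with the groups overlapping, and differed by 1.83 points (limma adjusted p = 0.844).

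The second was the start of Nr1i3, the constitutive androstane receptor (CAR), which switches on drug-metabolising enzymes. This was the one region counted to the gene, on chromosome 1 at 171213483 to 171214574, and it contains the stretch with CACGTG printed above. It ranked at 90.1, 87.6 and 92.1 in Syn 1 to 3 and at 67.3, 82.5, 73.9 and 79.4 in Allo 1 to 4. The Allo libraries were all lower, and more spread out, than the Syn libraries. The difference was -14.10 points (SE 3.15, limma adjusted p = 0.0314). Without Syn 1, Syn 2, Syn 3 or Allo 3 the adjusted p in limma was 0.122, 0.0819, 0.150 and 0.0578. Ranked by the deposited fold, the difference shrank to -4.45 points (limma adjusted p = 0.712), and in limma without trend the adjusted p was 0.126. Among the 47 receptor regions at starts it was the one that passed (1.07% of all shared start regions passed). Among the same 47, the groups did not overlap at 2 regions that were higher in Allo and 4 that were lower, against 7.64% and 3.65% of all shared start regions.

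The other bile acid and sterol receptors gave no call. Nr0b2 (SHP), a receptor without a DNA-binding domain that represses other nuclear receptors in bile acid feedback, had a start region at 81.4, 72.4 and 56.3 in Syn and 53.3, 57.3, 44.4 and 37.0 in Allo. Here Syn 3 stood below Allo 2, and the difference of -22.02 points had a limma adjusted p of 0.103. Nr1h4 (FXR), the bile acid receptor, had a pair of regions at its start that differed in opposite directions. The region over the listed start (chromosome 10, 89506317 to 89507052), which holds the printed stretch, ranked at 40.4, 53.9 and 40.0 in Syn and 23.4, 14.6, 14.6 and 37.5 in Allo. The second, 1.27 kb inside the gene (89504987 to 89505812), ranked at 55.1, 59.8 and 58.9 in Syn and 71.2, 74.3, 60.5 and 68.1 in Allo. The groups did not overlap in either, but the limma adjusted p was 0.122 for the first (-22.24 points) and 0.251 for the second (10.56 points). The strongest FXR region, 22.7 kb inside the gene, ranked at 81.1 to 93.6. The oxysterol receptors Nr1h2 and Nr1h3 (LXR beta and alpha) had strong starts, at 84.1 to 90.4 and 76.2 to 89.0. Nr1i2 (PXR), the other xenobiotic receptor, ranked at 41.1 to 68.3 at its start with overlapping groups.

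Rarb and Thra carried the other calls, in the group of receptors for vitamin A, vitamin D and thyroid hormone. Of its 62 shared regions 1 ranked higher and 1 lower (together 3.23%, against 2.90% of all). Rarb encodes retinoic acid receptor beta, itself a classic target of retinoic acid. Its region lay in the gene body on chromosome 14 at 16735145 to 16735734, at -160.0 kb from the listed start (upstream of that start, inside the annotated gene). The percentiles were 44.2, 27.3 and 41.4 in Syn and 14.1, 3.59, 5.72 and 9.19 in Allo. Every Allo library ranked it near the bottom. The difference was -29.49 points (SE 6.14, limma adjusted p = 0.0239), and it lost its call without Syn 1 (0.102), Syn 3 (0.106), Allo 3 (0.0573) or Allo 4 (0.0599) in the same fit. The difference itself stayed between -35.03 and -26.93 points over all single omissions. At the listed start, Rarb ranked at 49.0 to 59.9 in Syn and 55.8 to 65.4 in Allo, which overlap.

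Thra encodes thyroid hormone receptor alpha, the main receptor for this hormone in crypt cells. Its called region lay in the gene body on chromosome 11 at 98763092 to 98763851. It ranked at 11.1, 13.3 and 5.52 in Syn and at 37.9, 32.1, 46.8 and 32.3 in Allo. The lowest Allo library stood well above the highest Syn library. The means were 9.99 ± 4.02 (SD, n = 3) and 37.3 ± 6.90 (SD, n = 4), a difference of 27.27 points (SE 6.40, limma adjusted p = 0.0373). In the same limma fit the call held without Allo 2 (0.0198) and was lost on leaving out any other library, with adjusted p from 0.0617 (without Allo 4) to 0.184 (without Syn 3). The difference stayed between 24.39 and 29.05 points throughout. Thrb, the second thyroid hormone receptor, had 32 regions. Its start region, whose stretch with AGGTCA is printed above, ranked at 75.5, 81.2 and 75.3 in Syn and 83.6, 85.0, 83.4 and 84.0 in Allo. The groups did not overlap, but the difference of 6.64 points had a limma adjusted p of 0.133. Inside Thrb, a region at 17733111 to 17733987 ranked at 53.5, 56.5 and 65.1 in Syn against 36.2, 41.4, 21.1 and 39.9 in Allo (limma adjusted p = 0.0923).

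Vdr, the vitamin D receptor, was the one receptor whose number of open regions separated the groups. The counts were 12, 14 and 13 in Syn 1 to 3 and 15, 15, 16 and 15 in Allo 1 to 4. Over all 17105 genes with a region, 2.17% had higher counts in Allo without overlap and 1.37% lower. The exact permutation p for Vdr was 0.0286, the smallest that 35 relabellings can give, and its Benjamini-Hochberg adjusted value over those genes was 1, as for every gene, while 475 genes had an unadjusted exact p below 0.05. A region upstream of Vdr (-9.94 kb from its start, chromosome 15, 97917969 to 97918786) ranked at 81.8, 84.3 and 87.8 in Syn and 79.0, 73.2, 57.6 and 66.6 in Allo. All Allo libraries were lower, by 15.53 points on average, with a limma adjusted p of 0.0645. The start of Vdr ranked at 50.5 to 65.2, with overlapping groups. Rarg, which encodes retinoic acid receptor gamma, ranked at 72.6 to 81.9 at its start. Rara, which encodes the alpha receptor, had 12 of its 17 regions in all libraries and a start at 58.9 or higher.

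**Figure D4:**
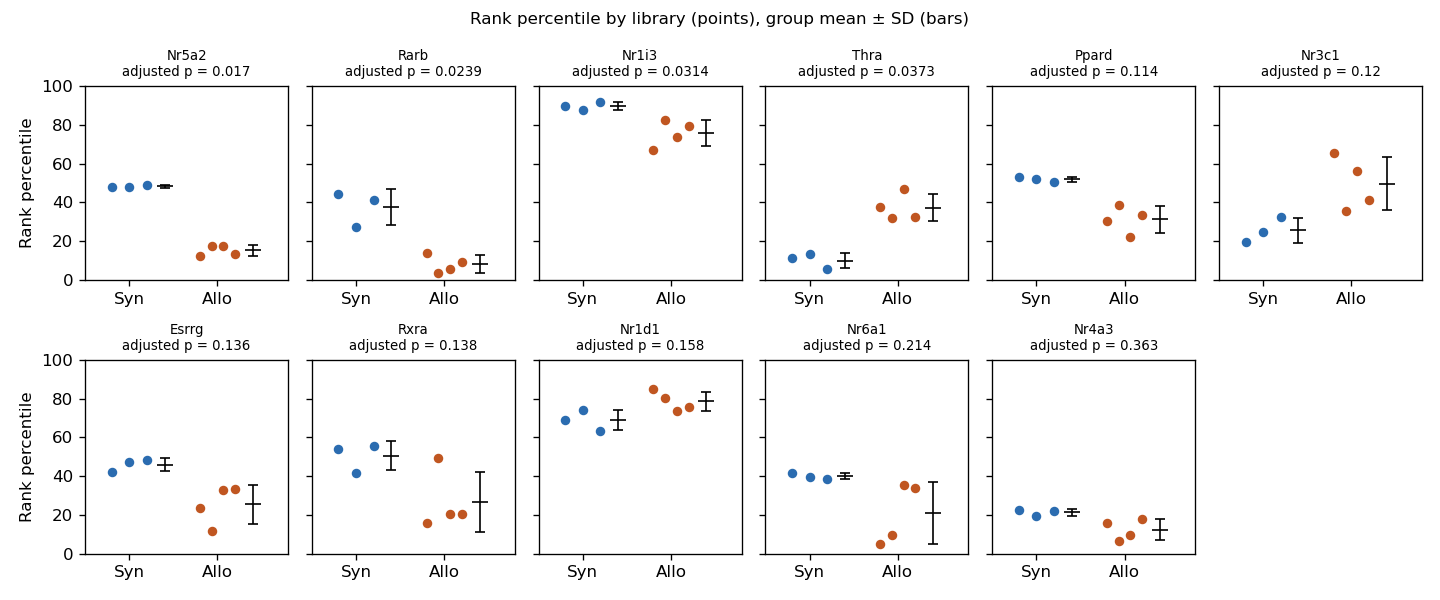
Rank percentile (y axis) in each library (points, Syn blue and Allo orange) for the 4 called regions and for the region with the largest difference in each further role; black bars are the mean ± SD. In Nr5a2, Rarb, Nr1i3 and Thra the groups do not overlap, while Rxra has 1 Allo library among the Syn values and the Allo libraries of Nr6a1 fall into a low and a high pair.

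None of the 30 shared regions of the peroxisome proliferator-activated receptors passed the limma test. Ppara, which drives fatty acid oxidation, and Ppard, a fatty acid sensor of crypt cells, had strong starts, at 93.3 to 97.6 and 75.8 to 89.4. The largest difference lay 47.7 kb inside Ppard (chromosome 17, 28279795 to 28280718), at 53.2, 52.2 and 50.7 in Syn and 30.2, 38.7, 22.2 and 33.8 in Allo. All 4 Allo libraries were lower, yet the difference of -20.79 points had a limma adjusted p of 0.114. A neighbouring Ppard region, 20.6 kb inside the gene (28253145 to 28253608), lay the other way, at 39.9, 38.9 and 40.0 in Syn and 51.8, 59.3, 64.6 and 65.1 in Allo (limma adjusted p = 0.0913). In Ppara a region 10.6 kb from the start ranked at 18.2 to 32.6 in Syn and 1.13 to 17.5 in Allo (limma adjusted p = 0.0953). Pparg, the receptor best known from fat cells and present in colon epithelium, held 12 regions in Syn 1, 12 in Syn 2 and 14 in Syn 3, and 9 to 13 in the Allo libraries, which overlap.

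The retinoid X receptors are the partners that most of the receptors above need for binding DNA. Rxra had 24 regions, 12 of them shared, and its strongest, 9.07 kb inside the gene, ranked at 72.1 to 77.9 in all libraries. The Rxra region with the largest difference lay upstream (-20.4 kb from the nearest listed start, chromosome 2, 27656593 to 27657186), at 54.2, 41.8 and 55.7 in Syn and 15.6, 49.5, 20.5 and 20.4 in Allo. Allo 2 stood among the Syn values, the other Allo libraries far below. The difference was -24.07 points (limma adjusted p = 0.138), and without Allo 2 it was -31.61 points (0.0202 in the same fit). Leaving out Allo 2 also raised the calls over all shared regions, from 667 higher and 792 lower to 1572 and 2136. Rxrg, the form of muscle and brain, had 3 regions, 1 of them shared.

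The steroid receptors gave no call among 28 shared regions. Nr3c1, the glucocorticoid receptor, had 14 regions, and its strongest was a region of 3094 bases in the gene body at 71.6, 72.7 and 71.4 in Syn and 82.4, 70.4, 77.7 and 76.5 in Allo. Another Nr3c1 region in the body ranked at 19.3, 24.8 and 32.5 in Syn and 65.5, 35.5, 56.3 and 41.5 in Allo. Each Allo library exceeded each Syn library, but the difference of 24.16 points had a limma adjusted p of 0.120. Without Allo 2, where calls rose over all shared regions, that value became 0.0455. Nr3c2, the mineralocorticoid receptor that governs sodium uptake, had a strong start (80.5 to 90.5) and a region 10.5 kb inside at 83.3 to 93.2. The best ranked region of Esr1, 9.08 kb inside the gene, ranged widely, from 33.6 to 77.0. Esr2, estrogen receptor beta, ranked at 12.4 to 40.0 at its start.

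Estrogen-related receptors bind no estrogen and are known for control of mitochondrial genes. Esrra had 2 regions, both shared. Esrrg had 19 shared regions, of which 11 ranked lower and 8 higher in Allo by their means, none past the limma threshold. Esrrg has 4 listed starts. Its other shared start regions had overlapping groups, at means of 42.2, 54.3 and 5.64 in Syn and 39.1, 47.0 and 10.9 in Allo. The best ranked start region, whose stretch shown above held no listed motif, stood at 96.6, 94.9 and 93.6 in Syn and 89.4, 91.3, 90.5 and 92.7 in Allo. All Allo libraries were lower by a small margin, -4.02 points on average (limma adjusted p = 0.104). A larger difference lay 19.8 kb inside Esrrg (chromosome 1, 188017299 to 188018957), at 42.0, 47.4 and 48.3 in Syn and 23.6, 11.8, 32.8 and 33.1 in Allo (-20.56 points, limma adjusted p = 0.136). Esrrb, the member best known from pluripotent cells, had 9 regions of which 1 was shared, at a mean percentile of 5.82.

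Nr1d1 and Nr1d2 (REV-ERB alpha and beta) repress the clock gene Arntl, and the ROR proteins activate it. Their 10 shared regions gave no call. At the Nr1d1 start the ranks were 69.1, 74.0 and 63.5 in Syn and 84.8, 80.3, 73.9 and 75.5 in Allo, where Syn 2 stood just above Allo 3, so that the groups overlapped. The difference was 9.77 points (limma adjusted p = 0.158). Nr1d2 stood at 86.5 to 94.1. The Rorb start, printed above, ranked at 88.4, 87.3 and 88.0 in Syn and 85.1, 83.5, 84.2 and 85.2 in Allo, groups that did not overlap at a difference of -3.42 points (limma adjusted p = 0.283). Rora had no start region, but a region in its body ranked at 74.9 to 90.5.

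The NR4A receptors are immediate-early genes, induced within minutes by many stimuli. The highest rank found for a receptor region was upstream of Nr4a1 (-20.4 kb from its start, chromosome 15, 101245959 to 101247057), at 98.6 to 99.7 in all 7 libraries. Nr4a2 had 4 regions, each held by every library, and the best ranked of them stood at 67.2 to 80.2. The open region over its start, at 86.3 to 91.9, was counted to the neighbouring gene LOC105244150 and is not among the 4. The largest NR4A difference, downstream of Nr4a3, ranked at 22.5, 19.3 and 22.2 in Syn and 15.6, 6.27, 9.75 and 17.8 in Allo. That gap of -8.96 points had a limma adjusted p of 0.363.

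Among the remaining orphan receptors none of 30 shared regions passed. Nr2c1 and Nr2c2 (TR2 and TR4) had strong starts, at 82.5 to 89.5 and 93.9 to 97.0. Nr2f2 (COUP-TFII), a receptor of mesenchyme and vessels, had no start region, but its best region ranked at 82.5 to 90.7. The largest difference was inside Nr6a1 (GCNF, a germ cell receptor), at 41.6, 39.6 and 38.6 in Syn and 4.89, 9.83, 35.3 and 33.8 in Allo. Allo 1 and 2 were far lower than Allo 3 and 4, and the difference of -18.99 points had a limma adjusted p of 0.214. Nr2f6 (EAR2), a relative of Nr2f2, had 2 shared regions of 3 and a start at 45.4 to 72.9 with overlapping groups. Nr2e1, known from neural stem cells, had 10 regions and none in all libraries. Nr2e3, known from photoreceptors, had 10 with 3 shared, and Nr5a1 (SF-1), known from adrenal and gonad, had 9 with 5 shared.

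Some receptor regions were present in 1 donor type alone. Of the 460 regions, 8 were held by all 4 Allo and no Syn library (1.74%, against 1.14% of all regions) and 6 by all 3 Syn and no Allo library (1.30%, against 1.01%). These 14 regions lay at 10 genes, 11 of them in a gene body. Their strength is given as a percentile of the library's whole list, and none reached a median of 50. The Allo-only region of Rarb (chromosome 14, 16478712 to 16479955) was the strongest of them, at 36.5, 36.6, 42.0 and 49.8 in Allo 1 to 4. Nr3c2 had a pair of Allo-only regions on chromosome 8, at 20.6, 31.7, 30.5 and 49.5 (77056631 to 77057340) and at 18.2, 8.48, 14.0 and 20.1 (77209267 to 77209862). Nr3c2 had a Syn-only region as well (76910752 to 76911085), at 24.3, 21.4 and 15.5, so both kinds of region lay at the same gene.

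Further Allo-only regions were weak in at least 1 library. Nr5a2 had one in its body (chromosome 1, 136854046 to 136854864) at 14.3, 8.48, 48.0 and 27.7. In Ppard the Allo-only region (chromosome 17, 28277647 to 28278050) stood at 8.51, 23.8, 29.5 and 26.7. The Rxra one lay downstream of the gene (chromosome 2, 27770226 to 27770641) at 13.2, 23.8, 35.1 and 10.2. For Nr2f2 it lay upstream (-49.9 kb from the start, chromosome 7, 70416388 to 70416795) at 14.3, 43.7, 2.15 and 27.7. The Thrb region (chromosome 14, 17981898 to 17982432), the one at a listed start, stood at 5.55, 44.8, 0.818 and 24.1. In these 5 the libraries of the group differed widely among themselves.

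Pparg had a pair of Syn-only regions on chromosome 6. The first (115332970 to 115333735, -27.8 kb from the nearest listed start) stood at 39.3, 30.0 and 33.1, and the second (115397624 to 115397929, in the body) at 18.5, 30.0 and 35.7. No Allo library held either. Thrb had a Syn-only region on chromosome 14 (17802209 to 17802499) at 8.35, 23.9 and 21.1, beside its Allo-only one. The Syn-only regions of Esrrg (187872110 to 187872980, at 0.166, 19.6 and 2.11) and Nr6a1 (38872616 to 38873072, at 25.2, 1.60 and 5.43) were near the bottom of at least 1 list. With only peaks of −log10 q of at least 5, 3 of the 8 Allo-only and 3 of the 6 Syn-only regions still separated the groups. With all lists reduced to the same length, 3 and 2 did.

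**Figure D5:**
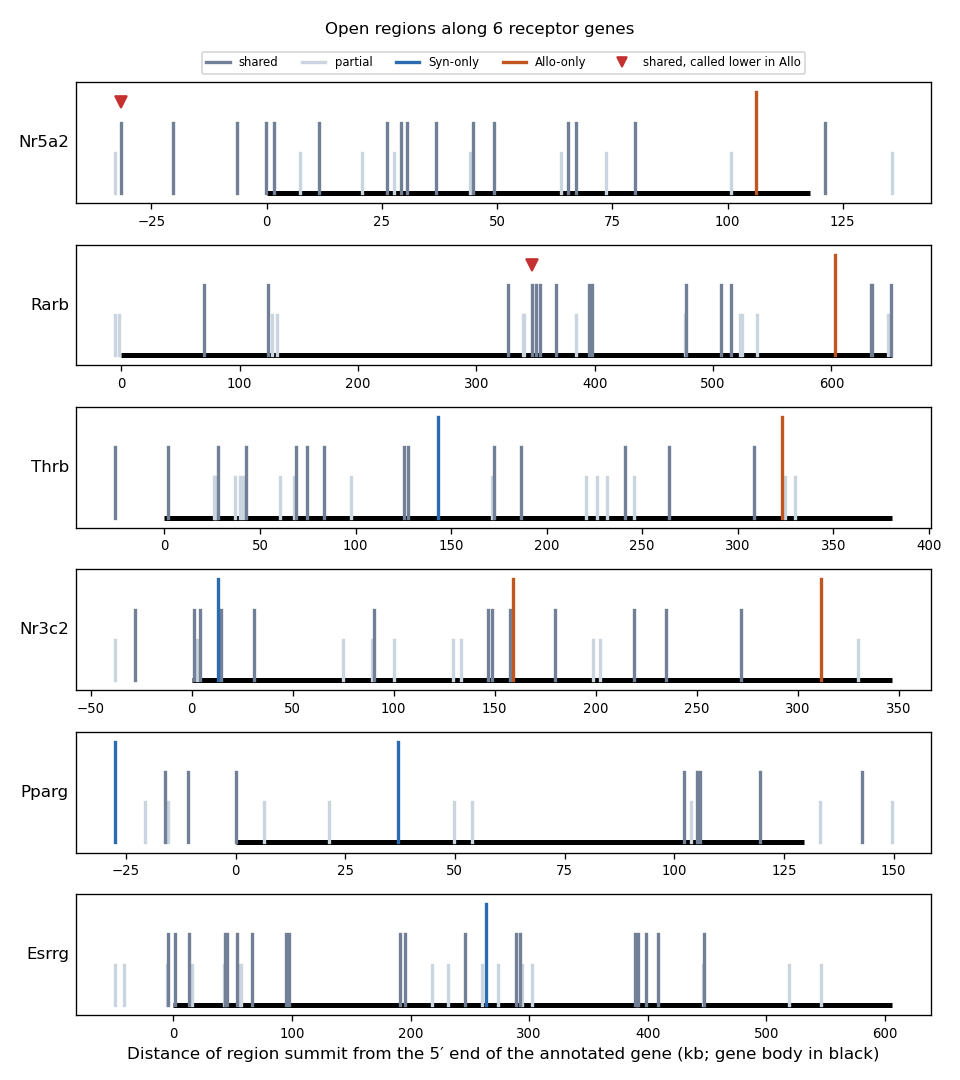
Open regions (vertical lines at their summits) along Nr5a2, Rarb, Thrb, Nr3c2, Pparg and Esrrg, by distance from the 5′ end of the annotated gene (x axis, kb), with the gene body in black. Dark grey lines are regions held by all 7 libraries, light grey lines by some, and coloured lines those of 1 donor type alone; red triangles mark the called regions of Nr5a2, upstream of the gene, and Rarb, inside it.

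The proteins that receptors work with, and the genes they are known to control, were described from 12 lists of 115 genes, of which 114 matched the annotation. Together they had 469 shared regions, of which 7 ranked higher and 7 lower in Allo by the same limma test (2.99%, against 2.90% of all shared regions). Of their 929 regions, 7 were Allo-only (0.753%, against 1.14% of all regions) and 12 were Syn-only (1.29%, against 1.01%). Whether the calls at these lists hold with other rankings or fewer libraries was not tested. Over all shared regions, the 667 higher and 792 lower calls fell to 32 and 17 with ranking by fold. They fell to 55 and 50 without Syn 3. Of 23 shared regions of other nuclear receptors 1 ranked higher (4.35%, against 1.33% of all shared regions). It lay at Hnf4g, a fatty acid-binding receptor of enterocytes, and differed by 42.73 points (limma adjusted p = 0.0081). Of 62 coactivator regions 2 ranked higher (3.23%). They lay at the histone acetyltransferase Ep300 (50.38 points, limma adjusted p = 0.0046) and at the p160 coactivator Ncoa2 (33.89 points, 0.0184). Of 49 corepressor regions 1 ranked higher (2.04%), at Tbl1xr1, a subunit of the NCoR complex (26.49 points, limma adjusted p = 0.0261). None ranked lower past the threshold, which 1.57% of all shared regions did. Allo-only regions lay at the coactivators Ppargc1a and Ncoa1 and at the corepressors Ncor1 and Nrip1, and Syn-only regions at Ncoa1 and at the corepressor Hdac3.

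Genes known as targets of PXR and CAR had 18 shared regions, of which 15 had a lower mean in Allo, with a median difference of -9.62 points against 0.15 over all. The mean was lower in Allo at 24553 of all 50324 shared regions. Past the limma threshold were 2 (11.1%, against 1.57% of all called lower), both lower, at the cytochrome P450 genes Cyp2b10 (-36.34 points, adjusted p = 0.0370) and Cyp2c55 (-39.51 points, 0.0470). The Cyp2b10 region (chromosome 7, 25889081 to 25889936) stood at 56.5 ± 4.02 (SD, n = 3) in Syn and 20.1 ± 15.6 (SD, n = 4) in Allo. In Allo 2 it stood at 42.8, closest to the Syn values, and the Cyp2c55 region ranged from 1.67 to 48.3 over the Allo libraries. Syn-only regions lay at Cyp3a11 and Cyp2b10 as well, and were weak, with median whole-list percentiles in Syn of 10.9 and 11.9. This list is small, and its regions share genes and libraries. Its calls were not followed under other settings.

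Bile acid targets of FXR had 23 shared regions with 1 lower, at the transporter Abcc3 (-32.62 points, limma adjusted p = 0.0403). They had 4 Syn-only regions of 43 (9.30%, against 1.01% of all regions), at Slc51b, Abcc2 and, in a pair, Slc10a2, the ileal bile acid transporter. Most of these were weak, with median whole-list percentiles in Syn of 0.634 (Slc51b), 6.05 (Abcc2), and 8.11 and 35.7 (Slc10a2). Whether they still separate the groups under stricter lists was not tested. Fatty acid and mitochondrial targets of PPAR and estrogen-related receptors gave 2 higher and 1 lower among 69: the lipid droplet gene Plin2 (16.37 points, limma adjusted p = 0.0236), cytochrome c, Cycs (30.80 points, 0.0339), and the fatty acid-binding gene Fabp2 (-30.38 points, 0.0385). Retinoic acid genes gave 1 lower of 37, at Aldh1a1, which makes retinoic acid (-32.36 points, limma adjusted p = 0.0460), with an Allo-only region at Dhrs3 and Syn-only regions at Stra6 and Rbp2. In the list of intestinal steroid synthesis, Cyp11a1, whose product starts that pathway, had 1 higher of 5 (36.40 points, limma adjusted p = 0.0219). Clock genes gave 2 lower of 79, at the start of Bhlhe40 (-8.14 points, limma adjusted p = 0.0292) and at Cry2 (-25.29 points, 0.0369), with a Syn-only region at Npas2. None of the 33 LXR target, 11 vitamin D target or 65 glucocorticoid and mineralocorticoid target regions passed. The shares that passed were 4.35% for FXR targets, 4.35% for PPAR and estrogen-related targets and 2.70% for retinoic acid genes. They were 20% for steroid synthesis and 2.53% for clock genes. Over all shared regions 2.90% passed, 1.33% higher and 1.57% lower. A Syn-only region lay at the LXR target Abca1. Allo-only regions lay at Atp2b1 and at the start of Scnn1a, a subunit of the epithelial sodium channel.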

How the data were processed

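Omni-ATAC-seq of sorted Lgr5+ cells gave 1 peak list for each of 7 libraries (Syn, n = 3; Allo, n = 4). Reads were processed with Trim Galore, Bowtie2, MACS2 and MACS3 on mm10, per the submitters' processing notes; their versions, settings and order are not given in the sources used here. Deposited lists follow the narrowPeak layout, with peaks called in each library by the authors: column 7 is a fold enrichment, a ratio to the caller's background, column 9 is −log10 of a q-value, and the smallest deposited −log10 q was 1.30. Column 5, a score, was deposited as well and was not used. These values are the authors' own and served only to rank peaks within a library. The read depth is unknown.

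Peaks on chromosomes 1 to 19 and X were joined across libraries into regions where they shared 1 bp or more, and each region was assigned by the summit of its best ranked peak, with RefSeq genes of GRCm38.p6 (21631 protein-coding genes). Rank percentiles over the shared regions were fitted with limma 3.58.1 (trend, two-sided, Benjamini-Hochberg over all 50324) in R 4.3.3. Region counts per gene were compared by an exact permutation test in Python 3.11.15. Scripts were tested on simulated data. Promoter sequences came from RefSeq.

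The 44 members, their roles, the gene lists and the tests were chosen with earlier results of these data known. Values in every library are given for called regions, for Allo-only and Syn-only regions, for the largest difference in each role and, as a range, for the best ranked region of up to 2 members of each role. Receptors or regions given beyond that rule were chosen after their values were seen. List genes are named for called regions, smallest p first, then for Allo-only or Syn-only regions. Alternatives were a stricter −log10 q of at least 5, lists of equal length, 501 bp summit windows, gene bodies alone, a start window of 500 bp, other rankings, a logit scale, limma without trend, a replicate block and leaving out libraries.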

Additional observations from a re-analysis of the deposited data

Results flagged for a closer look

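In groups of 4 libraries, a value was singled out when its gap to the nearest other library took up a large part of the group's range (Dixon's test at the 95% level). Of 89 sets of Allo values tested, 11 were singled out, and chance gives about 1 in 20 for values without ties. That rate does not apply to the 7 region counts among the 11, in which 3 libraries tied and any gap is singled out. For region counts, Allo 1 was lowest at Nr1h2 (2 regions, the others 3), at Esr2 (4, the others 5) and at Nr4a3 (3, the others 5). Allo 2 was lowest at Nr2f1 (4, the others 5) and highest at Rxrg (3, the others 2). Allo 3 was highest at Vdr (16, the others 15), and Allo 4 was highest at Nr2f6 (3, the others 2). Most of these differ by a single region. For rank percentiles, Allo 1 stood highest at the start region of Rxrb, at 83.0 against 80.6 to 80.8. Allo 3 stood highest at the start of Esr1, at 33.8 against 8.20 to 11.9, and lowest at the start of Nr1d2, at 86.5 against 92.9 to 94.1. At the Rxra region with its summit at 27656829, Allo 2 ranked at 49.5 against 15.6 to 20.5. The causes were not tested.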

How the results depend on the processing

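None of the 4 called receptor regions changed sign under the alternatives run. The density difference did, from -0.519 peaks per 10000 to 0.0566 without Allo 3 and 0.403 without Allo 3 and 4. The count of called receptor regions was the least stable. The fit with the replicate block also left out Allo 4. Without Allo 4 and with no block, 0 receptor regions were called higher and 2 lower. Over all shared regions that fit without a block called 260 higher and 246 lower. The 1 higher call became 0 without Allo 3 and 4, with whole-list percentiles, with ranking by fold and with the replicate block, 2 with limma without trend, and 6 without Allo 1 and 2. The 3 lower calls became 0 in the first 3 of these settings, 1 with the replicate block, 1 with gene bodies alone, where the Nr5a2 and Nr1i3 regions are no longer counted to the genes, 2 with lists of equal length, where the Rarb region had no counterpart among the shared regions, 2 with limma without trend, where Nr1i3 is lost, and 17 without Allo 1 and 2. Over single omissions the ranges were 0 to 2 higher and 0 to 9 lower; without a Syn library the fit has 2 Syn libraries left. Allo-only regions numbered 8, or 5 at −log10 q of at least 5, 5 with lists of equal length, 23 without Allo 1 and 2, and 8 to 11 over single omissions. Syn-only regions numbered 6, or 14 without Allo 3 and 4 (when Allo-only regions still numbered 8), 6 with lists of equal length, 11 without Allo 1 and 2, and 6 to 10 over single omissions. Genes with non-overlapping counts numbered 1 higher and 0 lower; the higher count was 7 without Allo 1 and 2, 2 with the replicate block and 1 to 3 over single omissions, and the lower count was 1 with lists of equal length, 5 without Allo 3 and 4, 1 with the replicate block and 0 to 2 over single omissions. Receptors with a start region in every library numbered 35, and 34 to 36 over single omissions, where density differences ran from -1.29 to 0.0566. Over all shared regions the 667 higher and 792 lower calls became 181 and 51 with whole-list percentiles, 32 and 17 with ranking by fold, 267 and 252 with the replicate block, 2661 and 3286 without Allo 1 and 2, and 55 to 1572 and 49 to 2136 over single omissions (70 and 49 without Syn 1). Same-numbered Syn and Allo libraries had correlations of their deviations of 0.0494, -0.0403 and 0.0539. Differently numbered libraries had -0.0638 to 0.0476. All of these were small and showed no clear pairing, which was not tested. The causes were not tested. Peak lists without read counts limit what can be said of weak regions.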
